A study of Mus musculus with 40 samples.

Results

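Livers of 3-month-old mice taken 72 h after PH (partial hepatectomy, the surgical removal of part of the liver) under an inhibitor of the kinase ATR were compared with livers taken before PH, at 0 h, from mice of the same age. All 11119 genes of the deposited tables were used, and the comparison draws on 11 of the 40 liver samples of the series, 7 at 0 h and 4 at 72 h. The inhibitor, called ATRi in the labels, was given at 24 h after PH, and the 0 h livers carry no ATRi label. The labels give neither strain, genotype nor sex for these 2 groups, apart from 3 mice at 0 h whose names contain wt. They do not give the compound's name or the unit of its dose. A pair of mice, M553 and M554, is labelled in both groups, so the groups are not fully separate animals. The other groups used for reference are 3-month livers at 48 h (3 mice) and at 72 h without ATRi (4 mice), and 12-month livers at 0 h (8 mice) and at 72 h with ATRi (4 mice) and without it (4 mice). M557 and M558 are likewise labelled both at 0 h and at 72 h without ATRi. At 12 months all 4 mice of each 72 h group are also labelled at 0 h.

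Each of the 2 groups compared is represented by the authors' mean alone, with no value for a single liver, so no spread between these mice and no test that rests on it can be given for any difference at 3 months. Levels are in log2 of a quantity that the authors call sigma and that the sources do not define. A difference is the ATRi mean at 72 h minus the mean at 0 h on that log2 scale, and a difference of 1 is a doubling. Because the levels come from bulk liver, a larger share of cells of a type and more RNA per cell cannot be told apart. The labels name the cell type as hepatocytes, and the hepatocyte markers were among the highest levels, with albumin (Alb) the highest of all genes at 14.65 at 0 h and 15.87 under ATRi. Markers of other liver cells were present as well, such as the endothelial and Kupffer cell genes described further on.

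After PH the remaining hepatocytes, which rarely divide in the adult, leave quiescence, copy their DNA and pass through mitosis until liver mass is restored. ATR is the kinase that senses stretches of single-stranded DNA at stalled replication forks. It signals through the kinase CHEK1 to hold back new origin firing and entry into mitosis. Genes of the G2 and M phases share promoter elements, the CHR (cell cycle genes homology region) and CCAAT boxes, through which the DREAM complex and the factors B-MYB, FOXM1 and NF-Y are known to act.

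At 72 h under ATRi, 224 genes (2.01% of all) exceeded their 0 h level by 1 or more and 166 genes (1.49%) were lower by 1 or more. The median over all genes was -0.10, and centring the differences on it gave 278 higher and 104 lower genes. Past a difference of 2 there were 64 higher and 9 lower genes. The higher group was led by the mitotic genes Ccnb2, Birc5 and Pbk, whereas the lower group was led by Mup21, a urinary protein gene, Pkdrej, Cyp4a10, a fatty acid hydroxylase, and Csad, an enzyme of taurine synthesis. Of the 224 higher genes, 78 lay within 0.6 of the lowest level in the table before PH, so their differences start from near the bottom of the scale. Just inside the higher threshold lay Mapkapk2 and Cdc6 (both 1.005), and just outside it Sae1 (0.993). On the lower side Tprkb (-1.002) lay just inside and Rpl37 (-0.999) just outside.

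**Figure D1:**
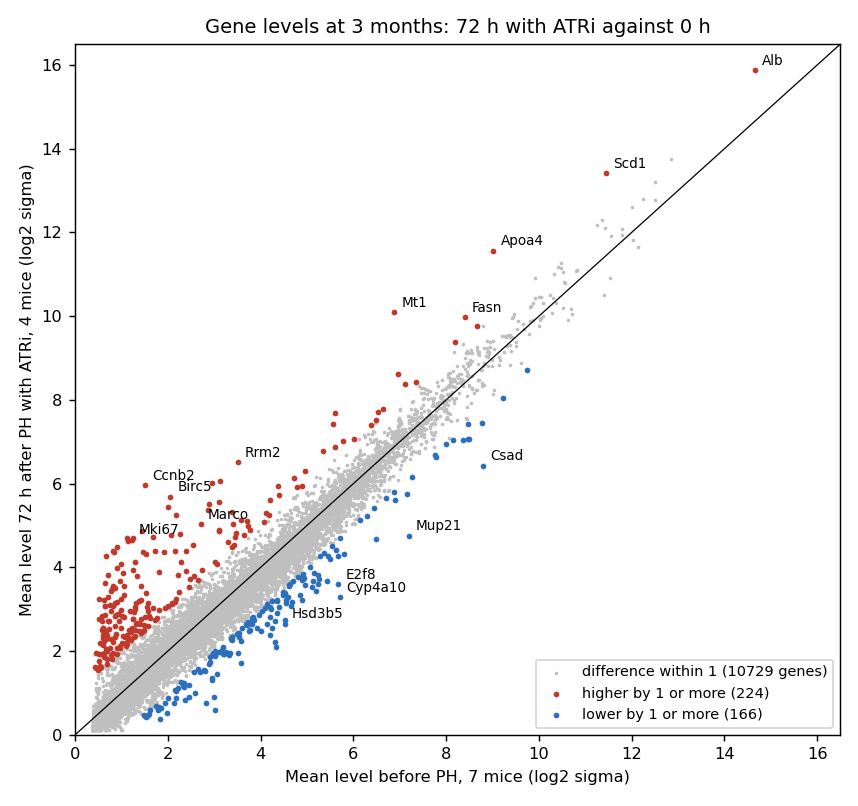
Mean level of each of the 11119 genes at 0 h (x axis, 7 mice) against 72 h after PH with ATRi (y axis, 4 mice), both in log2 sigma, with the line of equal levels. Red points are the 224 genes higher by 1 or more and blue points the 166 genes lower by 1 or more, and the red points crowd toward the low end of the x axis.

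The promoters of 4 leading mitotic genes are shown first because the higher genes carried the shared G2/M elements more often than the table as a whole. Each is the RefSeq window of 300 bases in build GRCm38.p6, from 250 bases before the start of the gene to 50 bases after it. Capitals mark the CHR motif (TTTGAA, or TTCAAA on the other strand) and the CCAAT box (CCAAT, or ATTGG on the other strand). Ccnb2 encodes cyclin B2 (chr9:70421505-70421804, minus strand), Plk1 encodes polo-like kinase 1 (chr7:122159185-122159484, plus strand), Cdk1 encodes the mitotic cyclin-dependent kinase (chr10:69352863-69353162, minus strand) and Mki67 encodes the proliferation marker Ki-67 (chr7:135716330-135716629, minus strand).
Ccnb2: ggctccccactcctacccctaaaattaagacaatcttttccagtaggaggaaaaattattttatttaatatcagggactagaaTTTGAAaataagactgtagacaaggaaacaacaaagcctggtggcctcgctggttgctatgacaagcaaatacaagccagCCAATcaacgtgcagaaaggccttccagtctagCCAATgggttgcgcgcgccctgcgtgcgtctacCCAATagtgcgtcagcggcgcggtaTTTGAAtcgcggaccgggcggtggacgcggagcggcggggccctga
Plk1: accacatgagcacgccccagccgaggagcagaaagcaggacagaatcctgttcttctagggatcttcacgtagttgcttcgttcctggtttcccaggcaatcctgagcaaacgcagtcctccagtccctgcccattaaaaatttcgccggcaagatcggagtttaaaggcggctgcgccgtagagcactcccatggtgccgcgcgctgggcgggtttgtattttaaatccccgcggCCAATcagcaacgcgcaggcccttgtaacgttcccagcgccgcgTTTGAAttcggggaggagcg
Cdk1: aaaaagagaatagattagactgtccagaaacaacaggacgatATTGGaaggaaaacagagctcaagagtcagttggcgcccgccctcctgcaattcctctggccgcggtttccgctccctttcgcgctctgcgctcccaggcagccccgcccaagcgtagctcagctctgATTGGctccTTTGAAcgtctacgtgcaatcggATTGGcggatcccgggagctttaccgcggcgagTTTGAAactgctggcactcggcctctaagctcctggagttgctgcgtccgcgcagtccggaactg
Mki67: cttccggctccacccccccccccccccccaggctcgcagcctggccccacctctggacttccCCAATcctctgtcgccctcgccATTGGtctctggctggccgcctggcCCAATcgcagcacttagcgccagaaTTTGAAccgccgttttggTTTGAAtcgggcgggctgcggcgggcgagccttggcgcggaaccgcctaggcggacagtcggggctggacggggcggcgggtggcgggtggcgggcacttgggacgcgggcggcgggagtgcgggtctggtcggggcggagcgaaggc

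Counting from 1 at the first base of the gene, with negative positions before it, the CHR motif began at position -15 and at -71 in Cdk1, at 5 and -167 in Ccnb2, at 31 in Plk1 and at -98 and -116 in Mki67. The Ccnb2 window held 3 CCAAT boxes, at -87, -54 and -21. No base lay in both motifs. Of the 6555 measured genes with exactly 1 RefSeq promoter window, 12.3% held a CHR motif on either strand, 39.0% a CCAAT box and 5.13% both. Among the genes higher by 1 or more, 55 of 153 windows (35.9%) held a CHR motif and 38 (24.8%) held both. The lower genes were near the level of all windows for CHR, with 10 of 98 (10.2%), and 2 of the 98 held both. A CCAAT box lay in 88 of 153 windows (57.5%) of the higher genes and 45 of 98 (45.9%) of the lower genes. Both shares were above the 39.0% of all windows. Within the cell cycle the share differed by phase. Of the mitotic list, 20 of 30 windows (66.7%) held a CHR motif, and of the replication list 4 of 29 (13.8%). Both lists held CCAAT boxes often, in 22 of 30 (73.3%) and 19 of 29 (65.5%) windows. A match of letters describes the window and does not show that a factor binds there.

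Mitotic genes were the group farthest above 0 h. Of 42 listed mitotic kinases, cyclins and spindle genes, 37 were measured, and 34 of these were higher by 1 or more, set beside 2.01% of all genes. Their median difference was 2.12, against -0.10 over all genes. Without ATRi at 72 h the same genes had a median of 1.82, and at 48 h of 2.86. Both comparisons share the 0 h mean. Ccnb2 stood at 1.498 at 0 h, 7.09 at 48 h, 5.63 at 72 h without ATRi and 5.97 at 72 h with ATRi. Its difference of 4.47 was the largest of all genes. Birc5, or survivin, a subunit of the chromosomal passenger complex, went from 2.05 to 5.69. Plk1 went from 1.15 to 4.63, Aurkb, the kinase of that passenger complex, from 1.25 to 4.70, and Cdk1 from 1.44 to 4.86. In each of these 5 genes the mean under ATRi lay above the untreated 72 h mean and below the 48 h mean. Mki67 followed the same order, with 1.22 at 0 h, 5.42 at 48 h, 4.31 at 72 h and 4.66 at 72 h with ATRi.

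Members outside the lead were also high. Top2a, the topoisomerase that untangles chromosomes before they separate, was higher by 3.10, and the spindle genes Prc1 and Aurka by 2.73 and 2.84. Foxm1, a transcription factor that drives G2/M genes, was at 0.85 before PH and 4.37 under ATRi. Of the mitotic list, 18 members were within 0.6 of the lowest level at 0 h, Ccnb1 (0.61) and Ndc80 (0.54) among them. Cenpa, the centromeric histone, had a higher starting level of 3.74 and reached 4.98. The 3 members that did not reach 1 were Ccnf (0.85), Cks2 (-0.15) and Pttg1 (-0.88), the last of which encodes securin. Other mitotic genes among the 20 largest differences came from outside the list, such as Pbk (3.60), Hmmr (3.58), Ckap2 (3.58), Knstrn (3.56), Arhgap11a (3.44) and Cenpm (3.05).

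**Figure D2:**
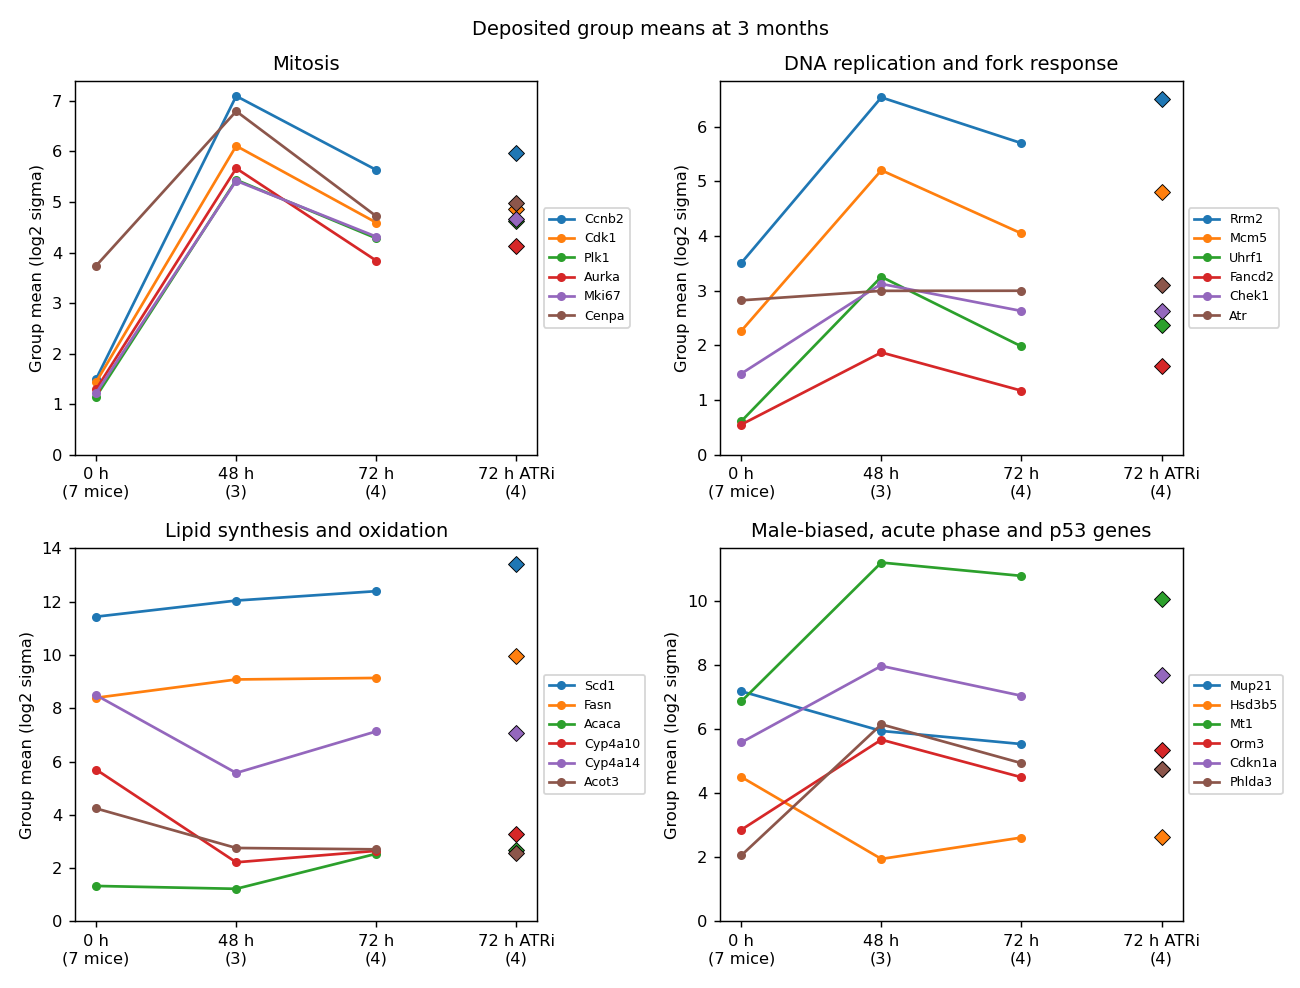
Deposited group means at 3 months (y axis, log2 sigma) for 6 genes in each of 4 panels, by group on the x axis with the number of mice in brackets. Lines join the untreated means at 0, 48 and 72 h, and the diamonds at the right are the 72 h means with ATRi, with no error bars because no single livers of these groups were used. The mitotic diamonds sit above their untreated 72 h means and below their 48 h means, and the diamonds of Mup21 (4.76) and Phlda3 (4.77) lie on top of each other.

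DNA replication genes were higher less strongly. Of 40 measured members of 49, 14 were higher by 1 or more and 1 was lower, beside 2.01% and 1.49% of all genes. Of the 40, 34 lay above 0. The median difference was 0.59, against 0.36 at 72 h without ATRi and 1.28 at 48 h. Rrm2, the regulated subunit of ribonucleotide reductase, which makes deoxynucleotides, stood at 3.50 at 0 h, 6.53 at 48 h, 5.70 at 72 h and 6.51 at 72 h with ATRi. Its mean under ATRi thus lay nearer to the 48 h mean than to the untreated 72 h mean. The other subunit, Rrm1, was higher by 1.62 under ATRi and by 1.04 without it. Among the MCM helicase genes, Mcm5 went from 2.26 to 4.80, with 4.05 at 72 h without ATRi. Mcm6 was higher by 1.99, Mcm2 by 1.58 and Mcm3 by 1.25, whereas Mcm4 (0.76) stayed short of 1. The chromatin assembly genes Chaf1a (1.81) and Chaf1b (1.33) and Uhrf1 (1.76), which guides maintenance of DNA methylation, were also past 1. The sliding clamp gene Pcna (0.17), the origin binding gene Orc1 (0.14) and the licensing factor gene Cdt1 (0.45) were not. Mcm10, which helps start the replicative helicase, was the member lower by 1 or more, with -1.36 under ATRi, and its untreated difference at 72 h was -1.15.

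Genes grouped under entry into S phase moved in both directions. Of 20 measured G1/S cyclins and E2F factors of 26, 4 were higher by 1 or more and 1 was lower. The shares of all genes were 2.01% and 1.49%, and the list's median was 0.28. Foxm1, named above as a driver of G2/M genes, was among the higher ones. The others were Rbl1 (1.24), a pocket protein, and the cyclins Ccne1 (1.04) and Ccnd1 (1.03). For both cyclins the untreated difference was larger, at 1.14 and 1.21. E2f8, an E2F family repressor, was lower by 2.07, with 5.67 at 0 h, 3.44 at 48 h, 4.07 at 72 h and 3.60 at 72 h with ATRi. E2f8 and Mcm10 (4.95 before PH and 3.59 under ATRi) both had their highest 3-month mean before PH.

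The transcript of the inhibited kinase was near its 0 h level. Atr stood at 2.82 at 0 h, 2.996 at 48 h, 2.998 at 72 h and 3.10 at 72 h with ATRi, and its partner Atrip was lower by 0.15. The transcript level says nothing about kinase activity, so it is no check of the treatment. Of 37 measured genes of ATR signalling, checkpoint and fork repair of 50, 5 were higher by 1 or more and none was lower. Their median was 0.25, and 0.09 without ATRi. Chek1, the kinase downstream of ATR, was at 2.63 in both 72 h groups and at 1.48 before PH. Among the 5, Fancd2, a Fanconi anaemia protein, was higher by 1.06 and by 0.62 without ATRi. Clspn, which encodes the adaptor claspin, was higher by 1.06, and Chek2, the kinase downstream of ATM, by 1.01, against 0.80 and 0.42 without ATRi. The alternate ATR activator Etaa1 (-0.04) and the clamp member Rad1 (-0.75) lay below 0, while the activator Topbp1 lay at 0.71.

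Targets of p53, the transcription factor activated by DNA damage, had a median of 0.44. Of 29 measured members (of 35), 6 were higher by 1 or more and none lower, beside 2.01% and 1.49% of all genes. Cdkn1a, the cell cycle inhibitor p21, was at 5.59 at 0 h, 7.99 at 48 h, 7.05 at 72 h and 7.69 at 72 h with ATRi. Phlda3, a repressor of AKT, was at 2.06 at 0 h and 4.77 under ATRi, and at 4.95 at 72 h without it. Ckap2 (3.58), Gtse1 (3.03), Tnfrsf10b (1.56), a death receptor gene, and Eda2r (1.30) were past 1, and the ubiquitin ligase gene Mdm2 (0.96) was not. Of these, Ckap2 and Gtse1 also act in mitosis, and the list's median without ATRi was 0.30.

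**Figure D3:**
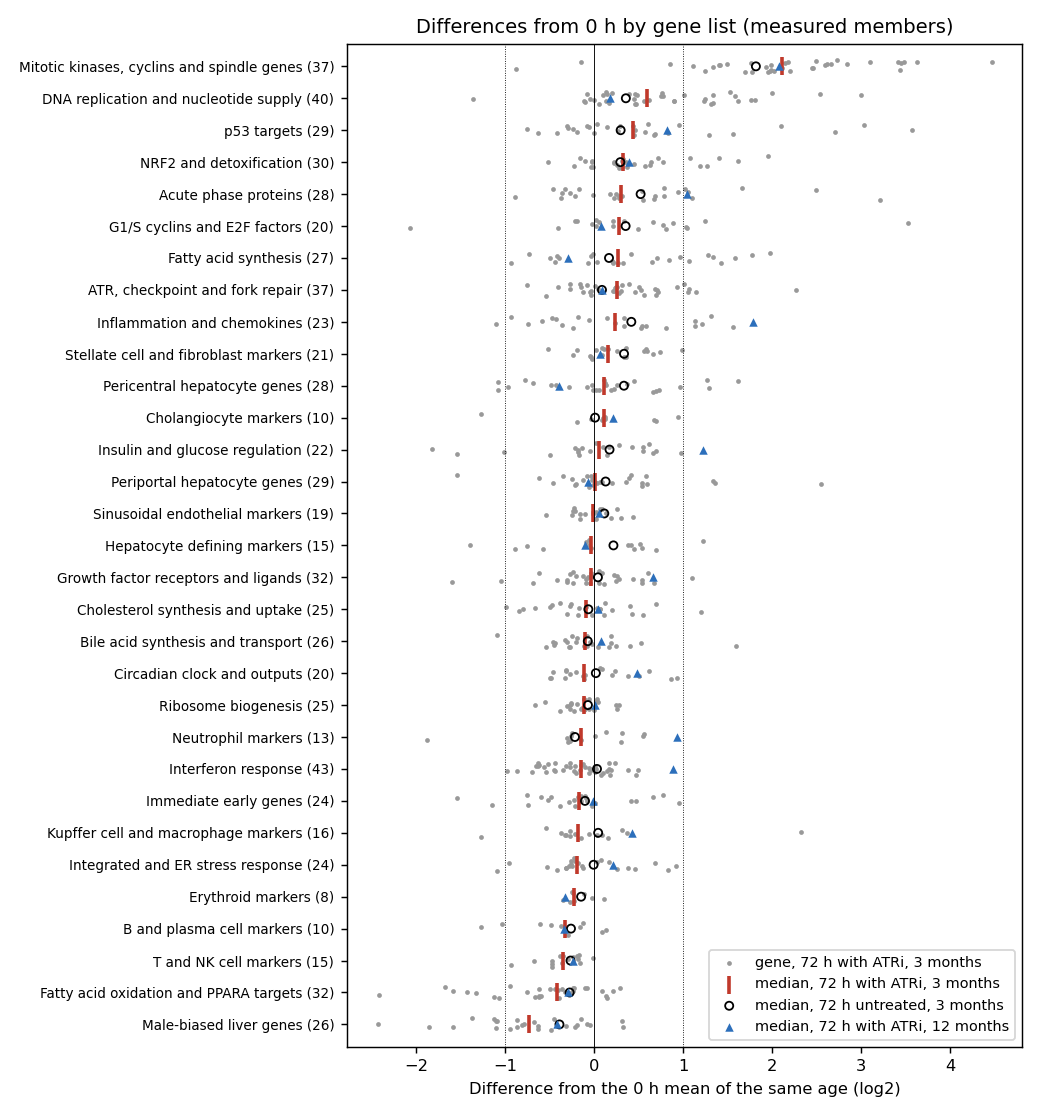
Differences from 0 h on the log2 scale (x axis) for the 31 gene lists (y axis, measured members in brackets). Grey points are genes and red bars list medians at 72 h with ATRi at 3 months, open circles are the medians at 72 h without ATRi at 3 months, and blue triangles the medians at 72 h with ATRi at 12 months against 0 h of that age. The mitotic list stands apart at 2.12, and the male-biased list is lowest at -0.73.

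Several lipid synthesis genes were above their 0 h levels, and most lipid oxidation genes were below them. Of 27 measured fatty acid synthesis genes of 30, 7 were higher by 1 or more and none was lower. The shares of all genes were 2.01% and 1.49%, and the list's median was 0.27. Scd1, the desaturase that makes monounsaturated fatty acids, stood at 11.44 at 0 h, 12.05 at 48 h, 12.40 at 72 h and 13.42 at 72 h with ATRi. Fasn, fatty acid synthase, stood at 8.40, 9.08, 9.14 and 9.98 in the same order. Both genes had their highest 3-month mean under ATRi. Acly, which supplies cytosolic acetyl-CoA, followed with 7.11 at 0 h, 7.80 at 72 h and 8.39 with ATRi. Acaca (1.33), the carboxylase ahead of Fasn, Scd2 (1.78), the phosphatase gene Lpin1 (1.42) and the NADPH source Me1 (1.07) were the other members past 1. Their untreated differences included 0.96 for Scd1, 0.74 for Fasn, 0.79 for Scd2 and 0.68 for Acly. The lipogenic regulator Thrsp (-0.42) and the acyl-CoA ligase gene Acsl1 (-0.93) were among the 9 members below 0. Cholesterol synthesis and uptake genes had 1 of 25 measured members (of 27) past 1 and a median of -0.10, equal to that of all genes.

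Of 41 genes of fatty acid oxidation and targets of the fasting receptor PPARA, 32 were measured. Of these 32, 7 were lower by 1 or more and none was higher, beside 1.49% and 2.01% of all genes. A total of 27 list members lay below 0. The median was -0.42, against -0.28 at 72 h without ATRi and -0.71 at 48 h. Cyp4a10, a fatty acid omega-hydroxylase, stood at 5.70 at 0 h, 2.22 at 48 h, 2.65 at 72 h and 3.28 at 72 h with ATRi. The thioesterase gene Acot3 was at 4.24 at 0 h and 2.56 under ATRi. Cyp4a32 (-1.59), Cyp4a14 (-1.44), Cyp4a12a (-1.13), Acaa1b (-1.33) and Acot4 (-1.07) were the other members past -1. The Cyp4a genes are related copies in 1 cluster, some of them very alike, so their separate values are uncertain. The entry enzyme of mitochondrial oxidation, Cpt1a (-0.33), was nearer to 0. The receptor gene Ppara itself was lower by 0.25.

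Male-biased liver genes, most of which depend on pulses of growth hormone, had the lowest median of the 31 lists. Of 26 measured members of 34, 8 were lower by 1 or more and none was higher, beside 1.49% and 2.01% of all genes. Of the 26, 24 lay below 0, and the median was -0.73. The untreated median at 72 h was -0.39. Mup21, a major urinary protein, stood at 7.19 at 0 h, 5.95 at 48 h, 5.54 at 72 h and 4.76 at 72 h with ATRi. Its difference of -2.44 was the most negative of all genes. Hsd3b5, a steroid-metabolizing enzyme, was at 4.51 at 0 h, 1.95 at 48 h, 2.62 at 72 h and 2.65 with ATRi. Keg1 (-1.58), Cyp2u1 (-1.38) and the organic anion transporter gene Slco1a1 (-1.10) were also past -1. The growth hormone effector Igf1 was at -0.04. All 5 measured major urinary protein genes lay below 0, and these too are related copies.

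Acute phase genes, which the liver expresses during inflammation, had a median of 0.30 under ATRi and 0.52 without it. Of 28 measured members of 33, 6 were higher by 1 or more and none was lower, beside 2.01% and 1.49% of all genes. The metallothionein gene Mt1, which buffers zinc and copper, stood at 6.88 at 0 h, 11.22 at 48 h, 10.80 at 72 h and 10.09 with ATRi. Orm3, an orosomucoid, stood at 2.86, 5.68, 4.51 and 5.36. Thus Mt1 was nearer to 0 h with ATRi than without, and Orm3 farther from it. Saa1, a serum amyloid, was higher by 1.66 and by 1.89 without ATRi. Of 23 measured inflammation and chemokine genes of 31, 5 were past 1 and 1 was past -1, with a median of 0.23. Tifa, an adaptor of NF-kB signalling, stood at 3.58 at 0 h, 8.15 at 48 h, 6.54 at 72 h and 5.14 with ATRi. The NF-kB brake Tnfaip3 (1.31) and the neutrophil chemokines Cxcl1 (1.21) and Cxcl2 (1.13) were higher, and Cxcl12 was lower by 1.10.

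Interferon response genes had no member past 1 in either direction among 43 measured of 54. Their median was -0.15, and 28 of 43 lay below 0, near the 63.0% of all genes that did. The members farthest from 0 h were the GTPase gene Irgm2 (-0.98), Rtp4 (-0.86) and Ifi44 (-0.70), while Isg15 was at -0.15 and Stat2 at 0.50. Immediate early genes, the first transcribed after a growth signal, had 2 of 24 measured members past -1, Egr1 (-1.54) and the phosphatase gene Dusp6 (-1.15), and none past 1. In the integrated and ER stress list 1 of 24 was past -1, Chac1 (-1.09). Of all genes, 1.49% were past -1 and 2.01% past 1, so counts of 1 or 2 members say little about these lists. Ribosome biogenesis genes had none past 1 in either direction among 25 measured, with a median of -0.12.

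Enzymes of detoxification were higher in part. Of 30 measured NRF2 targets and detoxification genes of 33, 6 were past 1 and none past -1, beside 2.01% and 1.49% of all genes. The list's median was 0.33. At 72 h without ATRi the median was 0.29 and 3 members were past 1. Cyp2b10, a target of the receptor CAR, was higher by 1.95 with ATRi and by 1.72 without it. The quinone reductase gene Nqo1 was higher by 1.41 with ATRi. Gstm2 (1.62), Gstm1 (1.26), Srxn1 (1.19) and Ugdh (1.07) completed the group, of which Gstm1 had an untreated difference of 0.48. The Gstm genes are close copies and their reads may be split unevenly. Hmox1, a classical stress target of NRF2, was at 0.22.

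Pericentral and periportal genes, expressed near the central vein or the portal tract, had medians near 0 and members past 1 in both directions. Pericentral genes had 3 of 28 members past 1, 2 past -1 and a median of 0.11, and 0.33 without ATRi. Periportal genes had 3 of 29 measured past 1, 1 past -1 and a median of 0.01, and 0.13 without ATRi. Of all genes, 2.01% were past 1 and 1.49% past -1. Glul, the defining pericentral enzyme, was higher by 0.37, whereas Cyp2c50 and Cyp2c54 were lower by 1.08 each. Apoa4, an apolipoprotein of triglyceride transport, went from 9.01 at 0 h to 12.08 at 48 h, 11.25 at 72 h and 11.56 with ATRi. Pck1, which controls glucose production, was lower by 1.54, while the amino acid enzymes Tat (1.35) and Ass1 (1.33) were higher. Of bile acid genes 1 of 26 measured was past 1, the transporter subunit Slc51b (1.59), and 1 past -1, Slco1a1. Cyp7a1, whose enzyme sets the pace of bile acid production, stood at 7.25 at 0 h, 5.88 at 48 h, 7.68 at 72 h and 6.71 with ATRi. It was thus above its 0 h level at 72 h without ATRi and below it with ATRi, and neither difference reached 1.

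Growth control and glucose regulation had members past the threshold, set beside 2.01% of all genes higher and 1.49% lower by 1 or more. Of 32 measured growth factor receptors and ligands of 37, Egfr was higher by 1.10, and Inhbc (-1.59), which encodes an activin chain, and the cytokine receptor gene Lifr (-1.05) were lower. Of 22 measured insulin and glucose genes of 23, 3 were lower by 1 or more and none was higher, and Pck1 was among them. Igfbp3, the main carrier of IGF1 in blood, was lower by 1.82 and by 0.99 without ATRi. Igfbp2 was lower by 1.02 under ATRi. Clock genes had none past 1 in either direction among 20 measured, with a median of -0.11. The time of day of sampling is not given in the sources used here.

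Markers of other cell types were checked beside these groups. For sinusoidal endothelium the summed log2 level over 19 measured markers of 23 was 63.1 at 0 h and 62.7 under ATRi, and none was past 1 in either direction. For Kupffer cells and macrophages it was 50.51 and 49.97 over 16 of 21. Of these 16, 1 was past 1 and 1 past -1, beside 2.01% and 1.49% of all genes. The former was Marco, a scavenger receptor, with 2.71 at 0 h, 4.41 at 48 h, 5.18 at 72 h and 5.03 with ATRi. The latter was Cd74 (-1.28), which is also in the B cell list. Clec4f, which is specific to Kupffer cells, was at -0.06. All 15 measured T and NK cell markers of 20 lay below 0, with a summed level of 16.9 before PH and 11.6 under ATRi. Their median was -0.35 with ATRi, -0.27 at 72 h without it and -0.46 at 48 h. B and plasma cell markers went from 19.3 to 15.2 over 10 of 16, with Cd74 (-1.28) and Mzb1 (-1.04) past -1. The median of these was -0.33 with ATRi, -0.26 at 72 h without it and -0.53 at 48 h. Stellate cell and fibroblast markers went from 55.7 to 60.6 over 21 of 27, with Col1a1 at 0.99. Neutrophil markers went from 16.54 to 14.98 over 13 of 18, of which 9 were within 0.6 of the lowest level before PH. Cholangiocyte markers went from 36.0 to 37.2 over 10 of 16, and erythroid markers from 28.3 to 26.9 over 8 of 17. The summed level of the hepatocyte markers was 115.4 before PH and 115.7 under ATRi over 15 of 20, with Cebpa lower by 1.40 and Alb higher by 1.22. The lowest level in the table was 0.393 at 0 h and 0.107 under ATRi, so a gene at the bottom in both groups differs by -0.29 from that alone. Of the T and NK cell markers 5 of 15, and of the B and plasma cell markers 3 of 10, were within 0.6 of the lowest level before PH. The part of such shifts in the differences above was not tested.

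The whole table at 72 h without ATRi at 3 months gave 274 higher (2.46%) and 225 lower genes (2.02%) against the same 0 h mean. Set directly against the untreated 72 h mean, the ATRi mean was higher by 1 or more in 6 genes (0.054%) and lower in 14 (0.126%), so few genes were apart by that much between the treated and untreated 72 h means. Some named genes still had unlike values. Csad was at 8.80 at 0 h, 6.21 at 48 h, 7.34 at 72 h and 6.43 with ATRi. Cyp2a5 was higher by 1.29 with ATRi and 1.74 without it, and Cxcl13 was at -0.94 with ATRi and 0.34 without it.

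The same comparison at 12 months shares no liver with the one at 3 months and gave more genes past 1. There, 1452 genes (13.1%) were higher at 72 h with ATRi than at 0 h and 566 (5.09%) were lower. The single livers set against the same 0 h mean gave 720 to 1517 higher and 550 to 1124 lower genes, with liver M546 the lowest in both. Without ATRi the 12-month livers at 72 h gave 325 higher (2.92%) and 112 lower genes (1.01%) against that 0 h mean. Of the 224 higher genes at 3 months, 148 were also higher at 12 months, which is 66.1% of the 3-month and 10.2% of the 12-month genes. Of the 166 lower genes, 105 were also lower, or 63.3% and 18.6%. The median differences of these 3-month genes were 1.52 at 3 months and 1.43 at 12 months for the 224 higher genes, and -1.18 and -1.19 for the 166 lower ones. Across all genes Pearson's r between the 2 ages was 0.55 and Spearman's rho 0.54, as a description across genes, which are not independent replicates. The difference between the ages was not tested, since 3 of the 4 groups have only a mean.

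The mitotic list had medians of 2.12 at 3 months and 2.08 at 12 months, and between 1.46 and 2.03 in the 4 single 12-month livers. The replication list had 0.59 at 3 months, 0.18 at 12 months and 0.06 to 0.17 in the single livers. Rrm2 was higher by 3.002 at 3 months and by 1.47 at 12 months, and Mcm6 by 1.99 and 0.91. Inflammation and chemokine genes went the other way, with 0.23 and 1.79, as did interferon genes, with -0.15 and 0.89, although the single livers ranged from 0.07 to 1.47 in the interferon median. Insulin and glucose genes had medians of 0.06 and 1.23, with Irs2, an insulin receptor substrate, at 0.42 and 4.05. Fatty acid synthesis was at 0.27 and -0.29. Scd1 was higher by 1.98 at 3 months, and in the 12-month livers it differed from 0 h by -1.93, -0.97, 0.00 and -1.15. Fasn was higher by 1.58 at 3 months, against -0.77, -0.68, -1.25 and -1.96. Thus no 12-month liver lay above the 0 h mean of its age in Fasn.

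Among the genes with the most unlike values at the 2 ages were Pid1 and Nos1ap on one side and Chrna4, Pnpla3 and Phlda2 on the other. Pid1 was higher by 0.75 at 3 months and by 5.53 at 12 months. Chrna4, a nicotinic receptor subunit, was higher by 1.57 at 3 months and lower by 3.18 at 12 months. Crp, C-reactive protein, was at -0.37 and 3.67, and Pnpla3, a lipid droplet lipase, at 0.84 and -2.67. Genes past 1 in opposite directions at the 2 ages numbered 4, namely Chrna4, Cyp2a5, Phlda2 and Cyp4a14. In the first 3 all 4 single 12-month livers lay below 0 h. Cyp4a14 gave -0.71, 2.09, -1.84 and 2.01 in them, so its livers were split and its place among the 4 rests on the deposited mean.

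**Figure D4:**
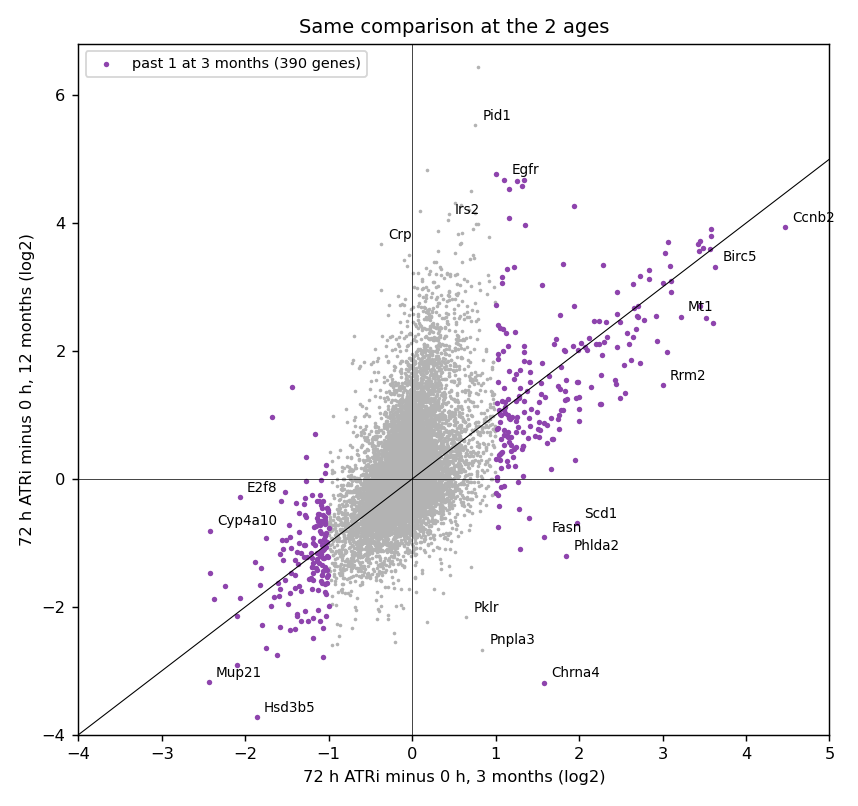
Difference 72 h with ATRi minus 0 h at 3 months (x axis) against the same difference at 12 months (y axis), both in log2, for all 11119 genes, with the line of equal differences. Purple points are the 390 genes past 1 at 3 months. Mitotic genes such as Ccnb2 and Birc5 lie near the line, while Pid1 lies far above it and Chrna4, Pnpla3 and Scd1 below it.

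The level of long genes was unlike at the 2 ages as well. Genes were split by genomic span into 5 groups of like size. At 3 months the median difference went from -0.19 in the shortest group to -0.04 in the longest, and 13 of the 2082 longest genes (span above 70.0 kb) were higher by 1 or more. At 12 months the medians were -0.21 and 0.52, 649 of the longest genes were higher by 1 or more, and the single livers gave 0.28 to 0.60 in that group. The difference between the ages in this pattern was not tested.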

How the data were processed

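RNA sequencing of polyadenylated RNA from mouse liver was used. The authors deposited, for 11119 genes, levels in log2 of a value they call sigma, and the table headers do not define it. The build is GRCm38/mm10 per the submitters' processing notes. Aligner, counting, scaling, filters and the way the means were made are not given in the sources used here. The values carry no read counts, which leaves sequencing depth unknown, and no interval that rests on depth is given. Only the 12-month ATRi group at 72 h has single livers, and its deposited mean exceeds the mean of the 4 livers' log2 levels by a median of 0.088. Some 507 entries join genes under 1 name. Nothing states whether counting used strand, so overlapping and antisense genes cannot be told apart.

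Differences were taken on the deposited log2 scale without further normalization, and genes were counted at 1 or more in either direction. The 31 lists hold 903 genes, of which 725 were measured and 178 were in no table. Members and lists were chosen with earlier results of these data known. Named genes are the 20 largest and 20 smallest differences without clone-named or joined entries, up to 6 members a list with the largest absolute difference, Atr, Chek1 and Mki67, and for age the 8 most unlike genes on each side; further list members are named to describe a list and were chosen after their values were seen, as were those named only for their role or as a contrast. Some genes are not reported here. Symbols were matched to GENCODE M21 for 10409 genes (93.6%), and promoters to RefSeq. Alternatives were centring on the median or on a lowess curve (statsmodels 0.14.6, span 0.3), a level of at least 1, joined entries left out, a threshold of 2, and limma 3.58.1 in R 4.3.3, tested on simulated data, with Benjamini-Hochberg adjusted p under 0.05 and the spread of the 4 12-month livers lent to both means.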

Additional observations from a re-analysis of the deposited data

Results flagged for a closer look

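Of 47 values checked in the 4 single 12-month ATRi livers (31 list medians and the 16 genes most unlike between the ages), 1 had a liver far from the others. The median difference of the cholangiocyte markers from 0 h was 0.741 in liver M545 and between -0.289 and -0.140 in the other 3. In the deposited 12-month mean this list was at 0.21, and at 3 months at 0.11. Chance alone places a liver this far out in about 1 of 20 groups, so 1 among 47 values is not more than chance would give. No such check could be made at 3 months, where only means were used.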

How the results depend on the processing

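No paired analysis was possible because the 2 groups are represented by their means alone, although mice M553 and M554 are labelled in both. Leaving out single mice could not be run for the same reason. The 224 higher genes became 422 with limma on the lent spread and 64 at a threshold of 2. The 166 lower genes became 104 after centring on the median, 845 with limma and 9 at a threshold of 2. The limma counts assume that 3-month mice vary as the 4 treated 12-month livers do and ignore the shared mice, so they are no test at 3 months. The other settings gave 219 to 278 higher and 122 to 166 lower genes. The 253 genes past 1 in the same direction at the 2 ages became 241 to 253 under the planned settings, and 218 to 242 with each single liver in place of the 12-month mean, chosen after seeing the data. Median centring changed the sign of 4 list medians, all within 0.096 of 0, and lowess centring of 6, all within 0.151 of 0. Of 217 named genes, lowess centring changed the sign of 1 and median centring of 0. With means only, differences that are small beside the unknown spread between mice cannot be judged.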

Other observations

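Several gene families were put together by symbol after their values were seen, so their counts describe them only. Some of their members are in the lists, 3 of 13 in the first. Of 13 centromere protein genes (Cenp), 7 were higher by 1 or more at 72 h with ATRi than at 0 h at 3 months, with a median of 1.25 and the highest at 3.05 in Cenpm. Of 11 Smc and Ncap genes, which include those of condensin and cohesin, 5 were higher by 1 or more, beside 2.01% of all genes. All 5 were genes of condensin, which folds chromosomes, led by Ncapd2 at 2.23. The condensin genes Ncapg (0.99) and Ncapd3 (0.18) did not reach 1. The cohesin genes Smc1a (0.21) and Smc3 (-0.24), whose complex holds chromosomes together, also stayed within 1 of their 0 h levels. Among 31 genes with kinesin (Kif) symbols, not all of them motor genes, 9 were past 1, led by Kif22 at 2.71. The median of the 31 was 0.10. The linker histone gene H1fx stood at 1.06 at 0 h and 3.34 with ATRi.

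Carboxylesterases, which hydrolyse esters of drugs and lipids, were lower by 1 or more in 6 of 16 genes and higher by 1 or more in 1, beside 1.49% and 2.01% of all genes. Of the 16, 3 are in the lists. Their median was -0.70, and -0.43 at 72 h without ATRi. Ces3b was lowest at -1.41 and Ces2e highest at 1.13. The MHC class II genes H2-Eb1 and H2-Ab1 (-0.19), their transactivator gene Ciita (-0.60) and the invariant chain gene Cd74 (-1.28) lay below 0, with H2-Eb1 at 5.13 before PH, 4.24 at 72 h without ATRi and 3.67 with it. Zinc finger genes of the Zfp series had none past 1 and 11 of 304 past -1, beside 1.49% of all genes. Of the 304, 241 lay below 0, beside 63.0% of all genes, with a median of -0.26 beside -0.10 over all genes. Ribosomal protein genes were near the median of all genes, with -0.06 over 36.

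Single genes outside the lists included Sult1e1, the estrogen sulfotransferase, at 0.61 at 0 h, 1.53 at 72 h and 2.54 at 72 h with ATRi, and Foxa1, a liver pioneer factor, at 5.23, 3.52 and 3.61. Esm1, an endothelial secreted proteoglycan, was at 2.83, 0.999 and 0.77. Txnip, a glucose-responsive arrestin, was lower by 1.33 with ATRi and by 1.38 without it. Id2 was lower by 1.01 with ATRi and by 0.29 without it.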
